A study of Arabidopsis thaliana with 27 samples.

Results

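The loci described here are the less abundant rRNA loci that the counts list under Ensembl non-coding RNA identifiers (ENSRNA numbers). Loci with such an identifier were taken where their raw counts summed to at least 270 over the 27 libraries, and the 4 most abundant ones, which are a pair of 18S and a pair of 5.8S loci, were left out. The rule found 69 of the 2071 small RNA loci counted, out of 515 rRNA loci with an ENSRNA identifier and 528 rRNA loci of any kind. By the symbol at the end of each locus name, 66 are 5S rRNA, 2 are 5.8S rRNA and 1 is large subunit (LSU) rRNA. Small RNA was measured in hypocotyls, the embryonic stems, of etiolated Arabidopsis thaliana seedlings, with 3 libraries in each of 9 groups. The groups were wild type (Columbia-0), xpf-3 and uvr8-6, each as a dark control or after 3000 or 30000 µmol per square metre of UV-B. All groups were grown on MS medium (0.5x) that held the gibberellin GA4 at 100 µM, in darkness for 2.5 days before the exposure and again after it. The extraction protocol has hypocotyls excised 6 hours after exposure and the series title says 2 days. XPF is the endonuclease subunit that cuts damaged DNA in nucleotide excision repair, and UVR8 is the UV-B photoreceptor. The labels do not say whether replicates came from separate cultures, so p-values measure the spread between these libraries, which may be technical. They give no mutant allele besides xpf-3 and uvr8-6 and no accession for the mutant lines.

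Cytosolic ribosomes carry 18S rRNA in the small subunit and 25S, 5.8S and 5S rRNA in the large subunit. In plants, as in other eukaryotes, RNA polymerase I transcribes 18S, 5.8S and 25S rRNA as a single precursor, whereas RNA polymerase III transcribes 5S rRNA from separate tandem arrays, some of which are silenced by chromatin. Chloroplasts make their own 16S, 23S, 4.5S and 5S rRNA. Small RNA libraries hold fragments of these molecules, so that a level here is that of fragments of library size and not of ribosomes.

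The symbol 5S rRNA does not tell nuclear from chloroplast genes, and the counts did not place all 69 loci in the nucleus. The 5S loci ENSRNA049494924 and ENSRNA049494930 had the same count, in each of the 27 libraries, as the chloroplast 5S genes ATCG00970 and ATCG01160, named RRN5S, with summed counts of 20419 and 20447. They are called the chloroplast-matched 5S loci below. The chloroplast 5S rRNA is shown because it is the only 5S sequence that could be tied to loci of the set. In RefSeq's TAIR10.1 it is annotated once, on the minus strand of the chloroplast (ArthCr091), and is 121 bases long.
chloroplast 5S rRNA: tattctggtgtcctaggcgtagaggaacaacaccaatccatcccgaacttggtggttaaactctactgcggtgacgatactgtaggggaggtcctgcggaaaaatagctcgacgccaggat
This sequence has 2 exact copies in the chloroplast genome and 0 on chromosomes 1 to 5 or in the mitochondrion. The other 64 5S loci were not tied to a sequence or a position here, so whether each is nuclear was not tested. The 5.8S loci ENSRNA049495034 and ENSRNA049495094 also stayed closer to a chloroplast row than to a nuclear one. The ratio of ENSRNA049495034 to the chloroplast 23S row RRN23S.1 varied 2.07-fold between the lowest and the highest library, with a coefficient of variation of 18.3%. Its ratio to the nuclear rDNA row AT2G01020 ranged 6.78-fold, with a coefficient of variation of 52.5%. For ENSRNA049495094 the coefficients of variation were 15.8% and 49.6%. These ratios are descriptions of counts that share libraries.

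The 69 loci summed to 348542 counts, of which the 66 5S loci held 95.96%, the 2 5.8S loci 3.60% and the LSU locus 0.437%. Counts were uneven among them. A locus had a median of 1524 summed counts, from 297 to 47809, and the 7 most abundant, all 5S, held 57.1%. The highest were ENSRNA049493392 with 47809, ENSRNA049494277 with 33632 and ENSRNA049494276 with 33140. Just inside the limit were ENSRNA049494127 with 310, ENSRNA049494128 with 300 and ENSRNA049494238 with 297, and just outside it were ENSRNA049494056 with 247 and ENSRNA049494195 with 233. The 442 loci under the limit summed to 9428 counts, and 204 of them had 0 in every library. The loci were chosen by these summed counts, which are given as a description. All 69 passed the filter on low counts, as did 1109 of the 2071 loci.

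Library totals ran from 681228 to 1970871 counts (median 1173114). The 69 loci took 0.531 to 1.45% of a library (median 1.05%), all rRNA loci 69.8 to 82.5%, and the 4 left-out loci alone 48.8 to 65.8%. The uvr8-6 library of replicate 1 at 30000 µmol stood apart in several loci, and the xpf-3 dark library of replicate 2 had the highest level of 21 of the 69 loci. Counts of calls resting on either are given with and without it, except in the added comparison of uvr8-6 with xpf-3. Levels are CPM, read counts scaled to a common library size, on sizes adjusted by TMM, a trimmed mean of ratios between libraries. In these bulk samples, fewer cells of a type and less RNA per cell cannot be told apart.

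**Figure D1:**
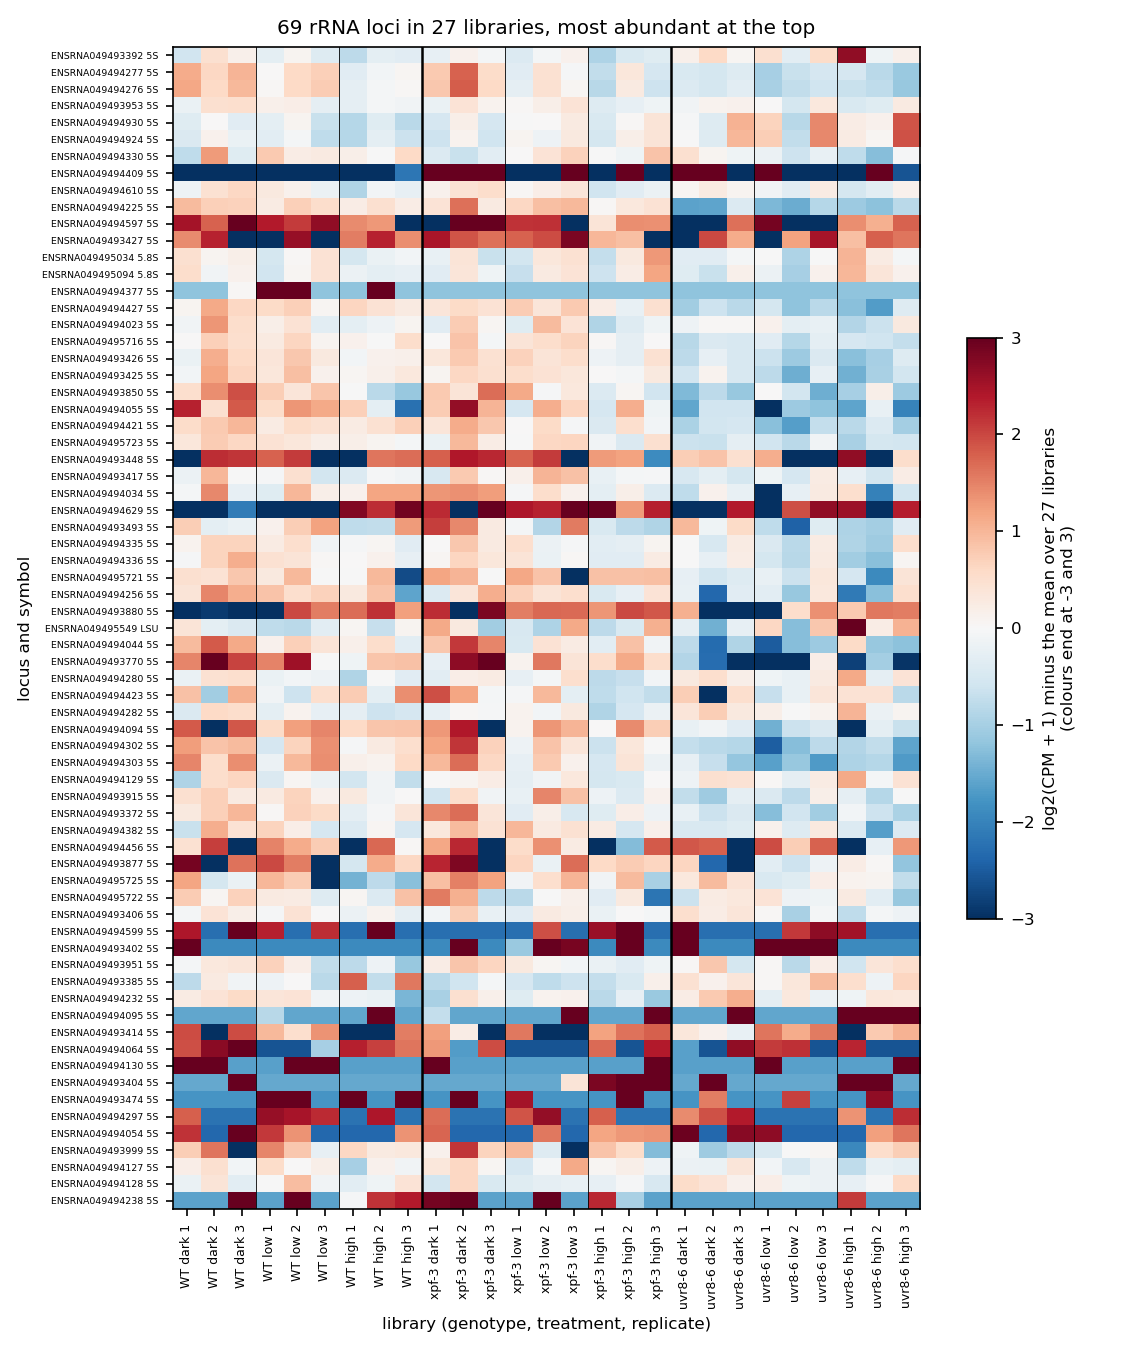
Levels of the 69 rRNA loci (rows, most abundant at the top) in the 27 libraries (columns, by genotype, treatment and replicate), as log2(CPM + 1) minus the mean of the locus over the libraries; colours end at -3 and 3. Many 5S rows are blue over the uvr8-6 columns on the right, and the rows that switch between dark blue and dark red are loci near 0 in some libraries.

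Among the 69 loci, most of those called between wild type and uvr8-6 were lower in uvr8-6. All were 5S, as are 66 of the 69 loci. Averaged over the 3 light conditions, 19 of the 69 loci (27.5%) were lower in uvr8-6 and 5 (7.25%) higher at an adjusted p under 0.05 in edgeR's quasi-likelihood test. Over all 1109 loci tested, 30.5% were called in this comparison, 16.1% lower and 14.3% higher. The median log2 difference was -0.42 over the 69 loci and -0.03 over all loci. With raw totals as library sizes the split was 20 lower and 2 higher, without the shares over all loci to set beside it. The median of all loci moved to -0.28, that of the 69 loci to -0.66. Leaving out any of the 18 libraries in turn gave 22 to 27 calls, and 22 without the uvr8-6 library of replicate 1 at 30000 µmol.

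ENSRNA049494225 showed the difference in each library. Its wild type levels were 388, 327 and 322 CPM in the dark, 238, 327 and 287 CPM at 3000 µmol, and 235, 278 and 233 CPM at 30000 µmol. In uvr8-6 they were 64.9, 66.0 and 151 CPM, then 78.0, 70.9 and 110 CPM, then 93.2, 84.3 and 114 CPM. Every uvr8-6 library was below every wild type library. The log2 difference over the conditions was -1.65 ± 0.19 (SE, n = 9 against 9, edgeR adjusted p = 4.89e-06).

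ENSRNA049494421 gave the smallest p of the 69. It had 122 CPM in the lowest, 152 CPM in the median and 208 CPM in the highest of the 9 wild type libraries, against 32.5, 58.9 and 77 CPM in uvr8-6. The groups did not overlap, with a log2 difference of -1.42 ± 0.16 (edgeR adjusted p = 4.14e-06). ENSRNA049494427 ran from 157 to 331 CPM (median 222) in wild type and from 46.4 to 114 CPM (median 84.4) in uvr8-6, again without overlap, a log2 difference of -1.43 ± 0.18 (edgeR adjusted p = 7.53e-06).

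Lower in level but further apart were ENSRNA049494303 and ENSRNA049494302. ENSRNA049494303 had 24.1 to 77.4 CPM (median 41.6) in wild type and 7.67 to 22.9 CPM (median 11.9) in uvr8-6, a log2 difference of -1.94 ± 0.25 (edgeR adjusted p = 1.49e-05). ENSRNA049494302 differed by -1.79 ± 0.28 on the log2 scale (edgeR adjusted p = 0.000111). Neither overlapped between the genotypes. These loci had similar counts, however, and are not independent evidence of each other. Their absolute differences, summed over the libraries, came to 15.9% of their mean summed count, a measure called the count difference below.

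The abundant pair ENSRNA049494276 and ENSRNA049494277 was closer still, with a count difference of 3.17%. ENSRNA049494276 had 730 to 1966 CPM (median 1317) in wild type and 401 to 703 CPM (median 547) in uvr8-6. No uvr8-6 library reached the lowest wild type library. The log2 difference was -1.12 ± 0.18 for ENSRNA049494276 and -1.08 ± 0.18 for ENSRNA049494277 (edgeR adjusted p = 0.000111 and 0.000176).

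Other called loci with large differences overlapped between the genotypes. ENSRNA049494055 had a log2 difference of -2.04 ± 0.44, ENSRNA049494044 of -1.71 ± 0.32 and ENSRNA049494256 of -1.16 ± 0.38. The last one lost its call in 7 of 25 alternative settings. ENSRNA049493770 had the lowest of the called differences, -3.52 ± 0.79 (edgeR adjusted p = 0.00205), and was at 0 to 21.1 CPM in uvr8-6, with at most 2 counts in 5 of the 9 libraries, against 16.7 to 171 CPM in wild type. ENSRNA049493850, at -1.21 ± 0.27, was called as well, but its sign was not the same in each condition. In all, 10 of the 69 loci (14.5%) did not overlap between the 9 wild type and 9 uvr8-6 libraries, compared with 5.68% of all loci tested.

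**Figure D2:**
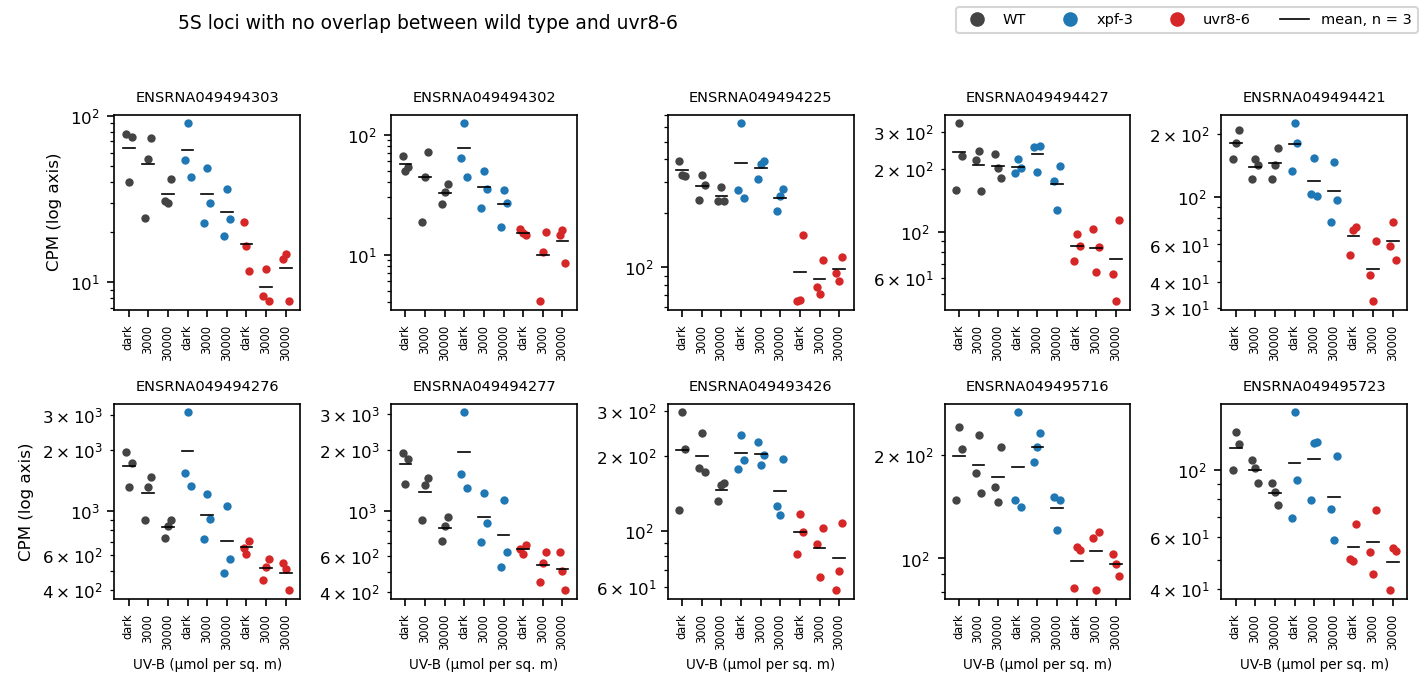
Levels (CPM, log axis) of the 10 5S loci whose wild type and uvr8-6 libraries did not overlap, by genotype (colour) and UV-B dose; points are libraries and bars the means of 3. The red uvr8-6 points lie below the grey wild type points in each panel, and the blue xpf-3 points overlap the grey ones, as in ENSRNA049494225, where they lie at 205 to 631 CPM. Blue and red points do not overlap in ENSRNA049494225, ENSRNA049494302, ENSRNA049494427 and ENSRNA049495716, and they overlap in the other panels.

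The 5S loci that were higher in uvr8-6 included the chloroplast-matched ones. ENSRNA049494924 had 403, 594 and 467 CPM in dark wild type and 539, 416 and 1079 CPM in dark uvr8-6. At 30000 µmol it had 298, 439 and 345 CPM in wild type and 646, 566 and 2028 CPM in uvr8-6. In the dark the genotypes overlapped, and at the higher dose they did not, with replicate 3 of uvr8-6 far above the other two. Over the conditions the log2 difference was 1.04 ± 0.29 (edgeR adjusted p = 0.00803), and 0.80 with an adjusted p of 0.0560 on raw totals. ENSRNA049494930 differed by 1.05 ± 0.28, and its counts were nearly the same.

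ENSRNA049493392, the most abundant locus, was called higher on the strength of a single library. It had 7523 CPM (12512 counts) in uvr8-6 replicate 1 at 30000 µmol and 628 to 1817 CPM in the other 26 libraries. The log2 difference of 0.87 ± 0.28 (edgeR adjusted p = 0.0228) became 0.42, with an adjusted p of 0.123, without that library. The call was also lost on raw totals. The last 2 higher calls, ENSRNA049494409 and ENSRNA049494629, are loci near 0 in many libraries and are described further on.

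In the dark alone, 15 of the 69 loci (21.7%) were lower in uvr8-6 than in wild type and 0 higher, where 11.6% of all loci were called, 6.85% lower and 4.78% higher. All 15 were 5S, as are 66 of the 69 loci, and all 15 were among the 24 called over the conditions (62.5% of those). The comparisons share the dark libraries. The median log2 difference was -0.56 over the 69 loci and -0.08 over all loci. The groups of 3 did not overlap in 21 of the 69 loci (30.4%), close to the 27.2% of all loci. The count of calls was 10 without wild type dark replicate 2, 9 without replicate 3 and 7 without replicate 1. Without uvr8-6 dark replicate 1, 2 or 3 it was 8, 4 or 7. When only these 6 libraries were fitted, the count was 0.

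ENSRNA049493850 stood out in the dark. Wild type had 170, 314 and 456 CPM and uvr8-6 had 46.8, 69 and 53.3 CPM. The groups did not overlap (log2 difference -2.47 ± 0.49, edgeR adjusted p = 0.00459). ENSRNA049494044, with 65.7, 123 and 75.4 CPM in wild type and 19.1, 6.00 and 17.4 CPM in uvr8-6, differed by -2.61 ± 0.57 (edgeR adjusted p = 0.00845). ENSRNA049494055 differed by -2.59 ± 0.77 and ENSRNA049493770, with 0 counts in uvr8-6 replicate 3, by a fitted -4.54 ± 1.43, which is no bound. The other dark calls among the 10 lowest were ENSRNA049494303, ENSRNA049494302, ENSRNA049494225, ENSRNA049494427, ENSRNA049494421 and ENSRNA049494277, between -1.90 and -1.39.

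Between xpf-3 and wild type no 5S locus was called. In the dark and over the conditions, 0 of the 69 loci were called between xpf-3 and wild type in edgeR, as were 0% of all loci. Before adjustment, 4 loci in the dark and 5 over the conditions had a p under 0.05, and DESeq2 called 4 and 5. Shares over all loci are not given beside these counts. The 4 with such an unadjusted p in the dark were ENSRNA049493880, ENSRNA049494409, ENSRNA049494599 and ENSRNA049494629, each a locus near 0 in some libraries. The median log2 difference of the 69 loci over the conditions was -0.05. A comparison of uvr8-6 with xpf-3, added after the data had been seen, called 18 of the 69 loci lower in uvr8-6 and 3 higher, where 27.5% of all loci were called, 14.2% lower and 13.3% higher. Of the loci lower than in xpf-3, 17 were also lower than in wild type. Both comparisons use the same uvr8-6 libraries. Among the 69 loci, the uvr8-6 and xpf-3 libraries did not overlap only in ENSRNA049494225, ENSRNA049494302, ENSRNA049494427 and ENSRNA049495716. The chloroplast-matched loci were not called against xpf-3, with log2 differences of 0.75 ± 0.28 and 0.71 ± 0.28 (edgeR adjusted p = 0.0558 and 0.0673).

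UV-B at the higher dose went with lower levels of some 5S loci. In the mean of the 3 genotypes, 10 of the 69 loci (14.5%) fell at 30000 µmol and 0 rose, compared with 16.9% of all loci called, 8.93% lower and 7.94% higher. The median log2 change was -0.41 over the 69 loci and 0.11 over all loci. On raw totals the median of all loci was 0.30 and that of the 69 loci -0.21. The count on raw totals was 3, without the share over all loci to set beside it. It was 4 without xpf-3 dark replicate 2 or without wild type dark replicate 3, 5 without wild type dark replicate 2, uvr8-6 dark replicate 2, or xpf-3 replicate 1 or 3 at 30000 µmol, and 6 without wild type replicate 2 or 3 or uvr8-6 replicate 1 or 3 at that dose or without uvr8-6 dark replicate 1.

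The ENSRNA049494276 and ENSRNA049494277 pair led these. In wild type ENSRNA049494276 had 1966, 1320 and 1731 CPM in the dark, 900, 1317 and 1478 CPM at 3000 µmol and 730, 843 and 901 CPM at 30000 µmol. In xpf-3 it had 1534, 3092 and 1332 CPM, then 722, 1207 and 913 CPM, then 490, 1061 and 572 CPM. In uvr8-6, which began low, it had 654, 611 and 703 CPM, then 448, 525 and 575 CPM, then 547, 514 and 401 CPM. Dark and 30000 µmol libraries did not overlap in any of the genotypes. The mean log2 change was -0.98 ± 0.18 (edgeR adjusted p = 0.0009), and -0.91 ± 0.18 for ENSRNA049494277 (edgeR adjusted p = 0.00201). Both calls held in all 25 alternative settings.

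ENSRNA049494610 fell in the mean of the genotypes, with log2 changes of -0.71 ± 0.24 in wild type, -0.73 ± 0.24 in xpf-3 and -0.35 ± 0.24 in uvr8-6, none of them called by itself. Its group means (SD, n = 3) went from 355 (93.7) CPM in the dark to 217 (61.2) CPM at 30000 µmol in wild type, from 362 (49) to 218 (32.6) CPM in xpf-3 and from 308 (25.4) to 242 (57.3) CPM in uvr8-6. The dark and 30000 µmol libraries overlapped in wild type and uvr8-6. The mean log2 change was -0.60 ± 0.14 (edgeR adjusted p = 0.00542), and was lost on raw totals (adjusted p = 0.118). The others with the same sign in each genotype were ENSRNA049494303 at -0.88 ± 0.25, ENSRNA049494302 at -0.86 ± 0.28, ENSRNA049494232 at -0.75 ± 0.23, ENSRNA049493372 at -0.71 ± 0.20 and ENSRNA049494336 at -0.60 ± 0.20. The calls of ENSRNA049494232, ENSRNA049494302 and ENSRNA049494336 lay close to the threshold, at edgeR adjusted p of 0.0332, 0.0390 and 0.0498. Of the 10 loci, 7 were also called in uvr8-6 over the conditions (29.2% of those 24), and the comparisons share libraries.

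Within single genotypes few loci passed. At 30000 µmol, 1 of the 69 loci (1.45%) fell in wild type and 0 rose. Of all loci 1.89% were called there, 1.44% lower and 0.451% higher. In xpf-3, 3 (4.35%) fell and 0 rose, where 4.87% of all loci were called, 3.79% lower and 1.08% higher. Both shares of lower loci were close to those over all loci, so these counts are not read as results about the 69 loci. In uvr8-6, 0 changed in edgeR, where 0.541% of all loci were called. Its count before adjustment was 3, and DESeq2 called 2, without the shares over all loci to set beside them. The medians of the 69 loci were -0.53 in wild type, -0.53 in xpf-3 and -0.08 in uvr8-6, beside 0.02, 0.02 and 0.10 over all loci.

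The locus that fell in wild type was ENSRNA049493850. Its dark levels of 170, 314 and 456 CPM were followed by 200, 154 and 212 CPM at 3000 µmol and 117, 68.0 and 53.7 CPM at 30000 µmol. Dark and the higher dose did not overlap (log2 change -1.97 ± 0.48, edgeR adjusted p = 0.0351). The call was lost on raw totals, with no filter on low counts, with a replicate block and when only the 6 libraries were fitted. It was also lost without wild type dark replicate 2 or 3, and without replicate 1, 2 or 3 at 30000 µmol. DESeq2 called 8 of the 69 loci in this comparison. Without the share over all loci beside it, that count is not read as a result about the 69 loci. In uvr8-6, where its dark level was low, the change was 0.56, and the difference between the genotypes' changes was 2.54 ± 0.67 with an edgeR adjusted p of 0.249.

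The 3 loci that fell in xpf-3 were ENSRNA049494276 at -1.49 ± 0.31, ENSRNA049493372 at -1.37 ± 0.34 and ENSRNA049494277 at -1.36 ± 0.32 (edgeR adjusted p = 0.00945, 0.0256 and 0.0154). ENSRNA049493372 had 80.3, 94.2 and 37.6 CPM in the dark and 22.4, 33.5 and 25.7 CPM at 30000 µmol, without overlap. Leaving out xpf-3 dark replicate 2, in which ENSRNA049494276 was at 3092 CPM, left 0 calls. The count was also 0 without xpf-3 replicate 1 or 3 at 30000 µmol, or when only the 6 libraries were fitted, and 9 with DESeq2. The TMM factor of the dark replicate was 0.746, and its part in the result was not tested beyond these values.

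At 3000 µmol, 0 of the 69 loci were called in edgeR in wild type (0% of all loci), xpf-3 (0.541%), uvr8-6 (0%) or the mean of the genotypes (0.902%). Before adjustment, 4, 9, 2 and 9 of the 69 loci had a p under 0.05, and DESeq2 called 4, 6, 1 and 9. The 4 loci with such an unadjusted p in wild type were ENSRNA049493404, ENSRNA049493880, ENSRNA049494064 and ENSRNA049494377. Each is a locus near 0 in some libraries, a kind described further on. Differences between a mutant's change and that of wild type were called for 0 of the 69 loci and for 0% of all loci, in either mutant at either dose. For the higher dose in uvr8-6, 7 of the 69 loci had an unadjusted p under 0.05 and DESeq2 called 2. For xpf-3 these counts were 3 and 3, and at the lower dose 2 and 4 in xpf-3 and 2 and 2 in uvr8-6. Shares over all loci are not given beside the unadjusted and DESeq2 counts, which are therefore not read as results about the 69 loci. A difference in response between uvr8-6 and wild type was not shown for any single locus.

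**Figure D3:**
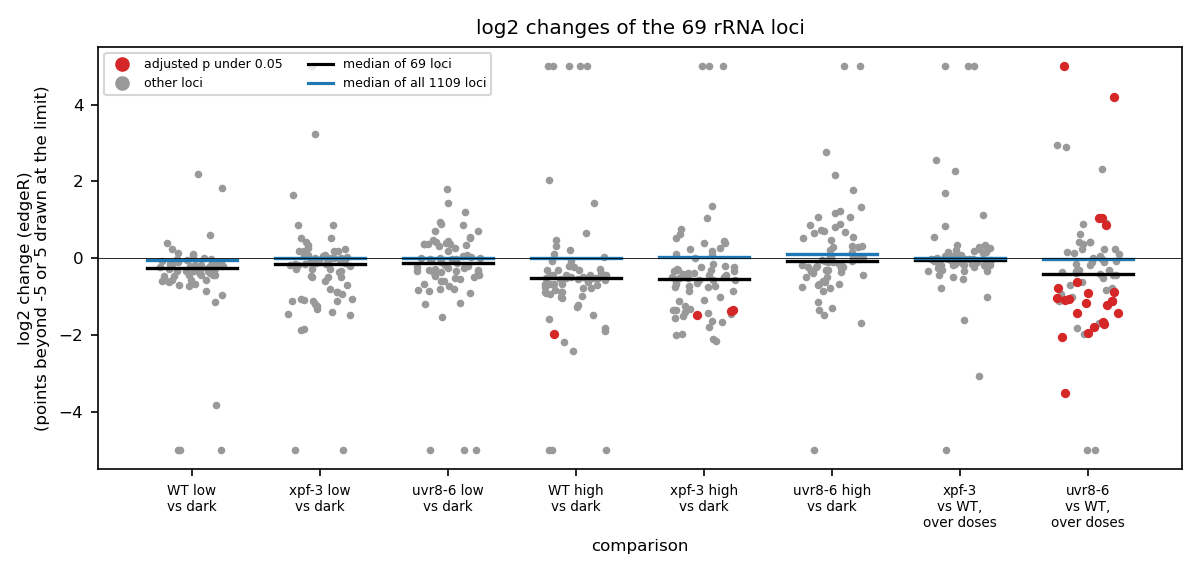
Log2 changes (edgeR) of the 69 loci in 8 comparisons; red points have an adjusted p under 0.05, black bars are the medians of the 69 loci and blue bars those of all 1109 loci, and points beyond -5 or 5 are drawn at the limit. The black bar is below the blue one at 30000 µmol in wild type (-0.53 against 0.02) and xpf-3 (-0.53 against 0.02), and in uvr8-6 against wild type (-0.42 against -0.03), where most red points are.

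Loci were also summed by library. The chloroplast-matched loci and ENSRNA049493392 were kept out of the sum after their values had been seen, which left 63 5S loci. The loci kept out had been called higher in uvr8-6 over the conditions, so the choice itself lowers the uvr8-6 sums relative to wild type. In the dark the 63 loci summed to 9055, 10308 and 10712 CPM in wild type, 9101, 15472 and 9828 CPM in xpf-3, and 5856, 6308 and 5356 CPM in uvr8-6. Thus all dark uvr8-6 libraries were below all others in the dark. Group means (SD) at 3000 and 30000 µmol were 8849 (1443) and 6678 (1091) CPM in wild type, 8088 (1332) and 5943 (1185) CPM in xpf-3 and 4980 (1062) and 4820 (323) CPM in uvr8-6. The order of the group means was the same in each genotype, while the libraries of neighbouring doses overlapped in all genotypes. No test is given for the sum, since the loci were chosen with results known.

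As a share of all counts, which uses no TMM factors, the 63 loci took 0.988% in dark wild type, 1.004% in dark xpf-3 and 0.535% in dark uvr8-6 (SD 0.170, 0.148 and 0.0745). After 30000 µmol the shares were 0.754%, 0.725% and 0.419% (SD 0.212, 0.0715 and 0.0885). In wild type the share at 3000 µmol was 0.997%, no lower than in the dark. All counts are mostly rRNA, which in the dark took a mean of 74.8% in wild type, 73.5% in xpf-3 and 79.4% in uvr8-6. With all 66 5S loci the dark means were 12245 (1364) CPM in wild type, 13511 (3890) CPM in xpf-3 and 8664 (365) CPM in uvr8-6, and at 30000 µmol 8252 (1354), 7867 (1529) and 10287 (3021) CPM. All dark uvr8-6 libraries were again below the others in the dark, but at 30000 µmol the uvr8-6 mean was the highest. That uvr8-6 mean holds the library in which ENSRNA049493392 was at 7523 CPM, with a 5S sum of 13253 CPM. The other uvr8-6 libraries at that dose were at 7215 and 10392 CPM, on either side of the dark ones at 8254 to 8954 CPM.

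**Figure D4:**
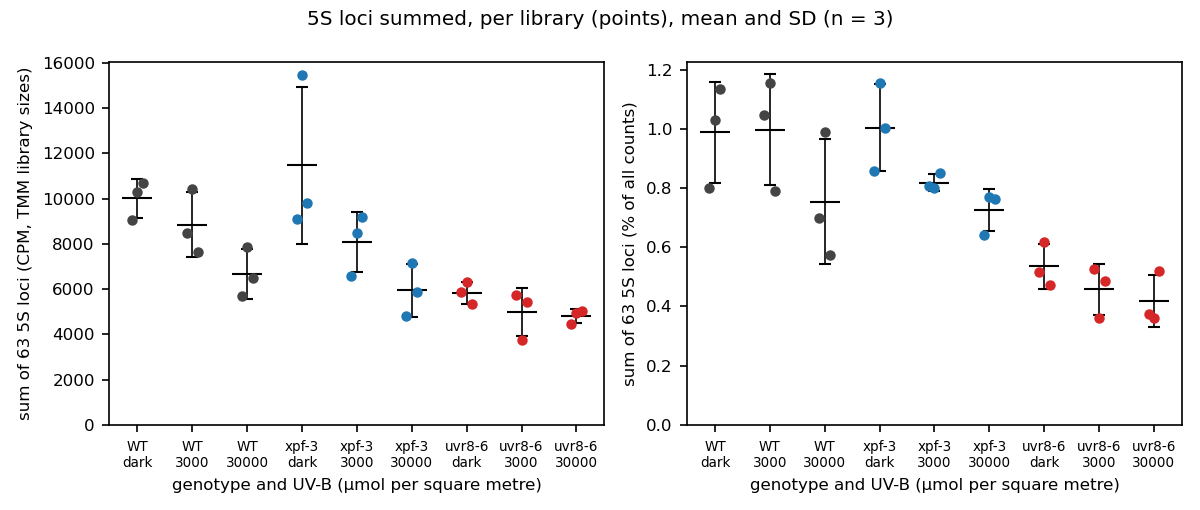
Sum of 63 5S loci per library, in CPM (left) and as % of all counts (right), by genotype and UV-B dose; points are libraries, bars the mean and SD of 3. The dark uvr8-6 libraries lie at 5356 to 6308 CPM, below the dark wild type libraries at 9055 to 10712 CPM, and the xpf-3 dark library at 15472 CPM stands alone. Left out are the chloroplast-matched loci and ENSRNA049493392, which had been called higher in uvr8-6 over the conditions.

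The 5.8S and LSU loci were called in none of the 16 comparisons. Over the conditions ENSRNA049495034 differed between uvr8-6 and wild type by -0.02 ± 0.24 and ENSRNA049495094 by 0.01 ± 0.24 on the log2 scale. ENSRNA049495034 had 240, 182 and 195 CPM in dark wild type and 135, 137 and 164 CPM in dark uvr8-6, and ENSRNA049495094 had nearly the same counts (a count difference of 7.31%). The groups did not overlap in the dark for ENSRNA049495034, with an edgeR adjusted p of 0.491. The LSU locus ENSRNA049495549 was at 10.5 to 67.9 CPM in 26 libraries and at 314 CPM (522 counts) in uvr8-6 replicate 1 at 30000 µmol. That library also held the highest level of ENSRNA049494280, ENSRNA049494282 and ENSRNA049494129, at 80.0, 71.5 and 71.5 CPM against next highest values of 51.2, 58.5 and 50.7 CPM. The other uvr8-6 libraries at 30000 µmol had 35.4 and 63.8 CPM of the LSU locus, also above the dark uvr8-6 libraries at 10.5 to 25.2 CPM. This log2 change in uvr8-6 was 2.76 ± 0.81 and was not called (edgeR adjusted p = 0.173).

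The left-out 5.8S loci were higher in uvr8-6, unlike most called 5S loci, but fell at the higher UV-B dose, as called 5S loci did. Over the conditions the 5.8S loci ENSRNA049494515 and ENSRNA049494585 were higher in uvr8-6 by 0.36 ± 0.09 and 0.34 ± 0.08 (edgeR adjusted p = 0.00336 and 0.00369), calls that were lost on raw totals, where the differences were 0.11 and 0.09. Among the other lists, 138 of 318 tested snoRNAs, the guides of rRNA modification, were called in that comparison, 89 higher and 49 lower. Of 97 snRNAs 7 were higher and 25 lower, of 481 tRNAs 40 and 58, and of 101 miRNAs 12 and 25. In the mean of the genotypes at the higher dose, ENSRNA049494515 and ENSRNA049494585 changed by -0.39 ± 0.09 and -0.39 ± 0.08 (edgeR adjusted p = 0.00378 and 0.00329). In xpf-3 they changed by -0.55 ± 0.15 and -0.54 ± 0.14 (edgeR adjusted p = 0.0382 and 0.0334). Neither was called in wild type or uvr8-6 alone. On raw totals these calls were lost too, with changes in the mean of -0.21 and -0.21. The xpf-3 calls were also lost with another scaling, RLE factors (edgeR adjusted p = 0.0827 and 0.0803). They were lost as well on library sizes of loci that are not rRNA (edgeR adjusted p = 0.0909 and 0.088).

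How the 69 loci varied beyond the groups is part of their description. The within-group SD of log2(CPM + 1) had a median of 0.622 over the 66 5S loci, from 0.288 to 4.27, and that of the log2 5S sum was 0.312. Loci near 0 in some libraries and well detected in others made up much of the upper end. Of the 69 loci, 24 had at most 2 counts in some library and at least 50 in another, 42 were never at or under 2 counts, and 3 lay between.

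ENSRNA049494409 had 722 to 1365 counts in 9 libraries, 5 of xpf-3 and 4 of uvr8-6, and at most 1 count in the other 18, among them all 9 of wild type. Its 5 xpf-3 libraries were all 3 of the dark, 1 at 3000 µmol and 1 at 30000 µmol. In uvr8-6 it was seen in 2 dark libraries and in 1 at each dose. It was called higher in uvr8-6 over the conditions (edgeR adjusted p = 0.0112), a call lost without uvr8-6 replicate 1 at 3000 µmol or replicate 2 at 30000 µmol, and its fitted difference is not given because wild type held 1 count in all.

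ENSRNA049494377 was seen in wild type alone, with 1781 to 2199 counts in 3 wild type libraries, replicates 1 and 2 at 3000 µmol and replicate 2 at 30000 µmol, and at most 1 count in the other 24. ENSRNA049494629 was over 2 counts in 3 wild type, 8 xpf-3 and 5 uvr8-6 libraries, with up to 320 counts. The 3 wild type libraries were those at 30000 µmol, with 110, 128 and 88 counts. Wild type had 1, 1 and 2 counts in the dark and 0, 0 and 0 at 3000 µmol. The change from dark to 30000 µmol in wild type was not called (edgeR adjusted p = 0.194). Its higher call in uvr8-6 over the conditions did not have the same sign in each condition. ENSRNA049494597 reached 967 counts and was at or under 2 in 7 libraries, and ENSRNA049493427 reached 630 counts and was at or under 2 in 6. Both were over 2 counts in libraries of each genotype. Without the 24 loci of this kind, the calls in uvr8-6 over the conditions were 18 lower and 3 higher, and in the dark 14 lower.

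**Figure D5:**
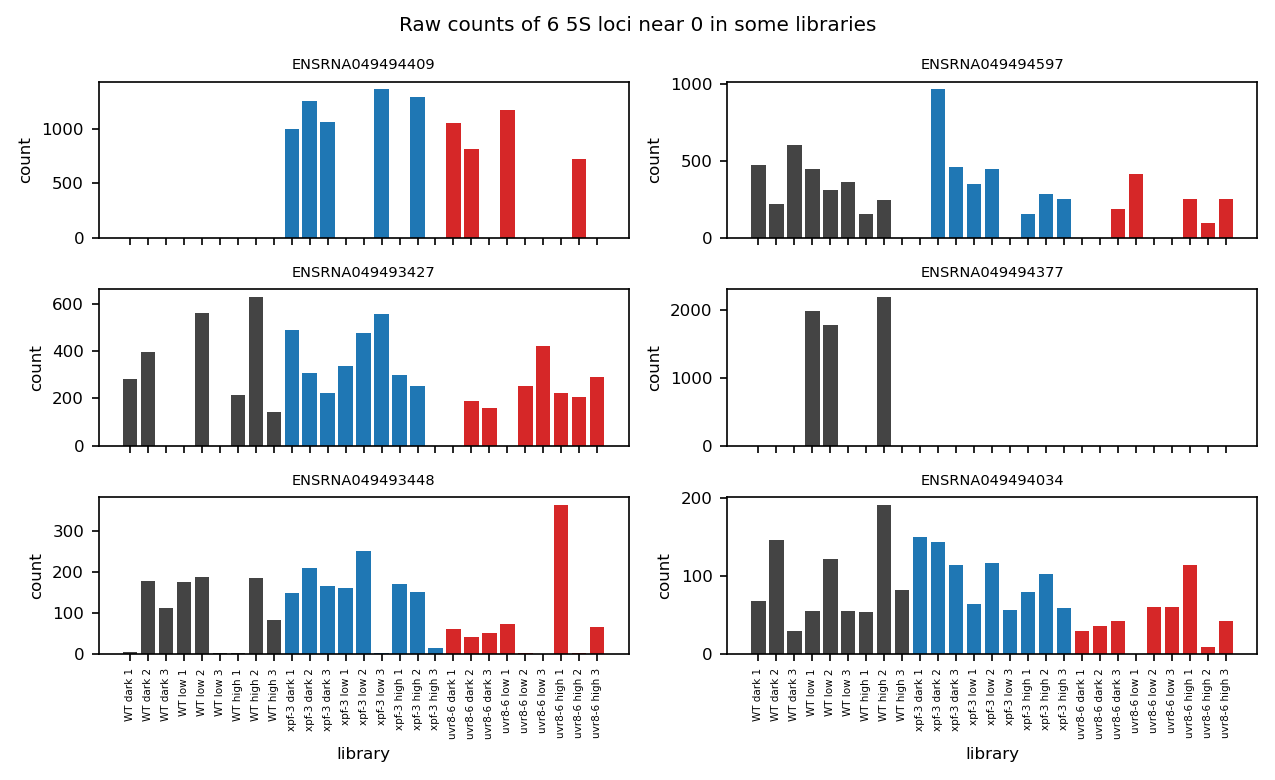
Raw counts per library of the 6 most abundant 5S loci that had at most 2 counts in some library and at least 50 in another (wild type grey, xpf-3 blue, uvr8-6 red). ENSRNA049494377 is seen in 3 wild type libraries with 1781 to 2199 counts, and ENSRNA049494409 in 9 mutant libraries with 722 to 1365 counts.

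Other loci had nearly the same counts. Of the 2346 pairs of loci, 5 had a count difference under 10% and 13 under 20%, where the median pair had 131%. Beside the pairs named, ENSRNA049494335 and ENSRNA049494336 differed by 8.39%, and ENSRNA049493425 and ENSRNA049493426 by 9.42%. ENSRNA049493426 was also within 15.1% of ENSRNA049494427 and 15.6% of ENSRNA049495716, and all of these were lower in uvr8-6 over the conditions, ENSRNA049493426 by -1.06 ± 0.17, ENSRNA049493425 by -1.12 ± 0.19 and ENSRNA049495716 by -0.90 ± 0.14. Likewise ENSRNA049494280, ENSRNA049494282 and ENSRNA049494129 lay within 14% of each other. The 5S genes are near-identical copies and how reads matching several of them were assigned is not given in the sources used here, so the level of any single locus is uncertain and counts of called loci are not counts of independent genes.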

How the data were processed

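Small RNA was read in 27 libraries, 3 replicates in each of 9 groups taken from the labels (3 genotypes by 3 treatments). The values are raw counts per locus, as deposited by the authors. Per the submitters' processing notes, FastQC and cutadapt were used before counting. Not given in the sources used here are the aligner, the counting tool, the strand setting, the genome build and how reads with several matches were treated. The other 7 deposited sheets (299 columns) were not used. Library totals of 681228 to 1970871 counts limit the precision of loci with few counts.

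Counts of all 2071 loci were filtered (filterByExpr, minimum count 10), scaled by TMM and fitted with edgeR 4.0.16 in R 4.3.3 by quasi-likelihood, with 9 groups and 18 residual degrees of freedom. P-values were adjusted by Benjamini-Hochberg over the 1109 loci kept, in each of 16 comparisons, and a locus was called under 0.05. Errors of log2 changes are SE, computed from the F statistic. The procedure was tested on simulated data. DESeq2 1.42.0, other library sizes, no filter, a replicate block, fits of only the groups compared and leaving out each library were alternatives. A locus was named where it was among the 3 most abundant of its symbol, lay at the count limit, or was called with groups that did not overlap (for means, with the same sign in each group), up to 10 each way. Further loci were named for near-equal counts, for near-absence in some libraries or for a library standing apart, after their values were seen. The loci and lists were chosen with earlier results of these data known. Replicate pairs had a chi-square per degree of freedom of 24.2 to 131 (27 pairs), and 0 pairs of libraries were identical.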

Additional observations from a re-analysis of the deposited data

Results flagged for a closer look

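Over the 9 libraries of a genotype, 6 of 48 checked sets had a library far from the others. A rate of about 1 in 20 by chance would hold for 9 like libraries, so it is no yardstick for these sets. ENSRNA049493392 was at 7523 CPM in uvr8-6 replicate 1 at 30000 µmol, with the next uvr8-6 library at 1817 CPM. In the same library ENSRNA049494044 was at 50.5 CPM, with the next at 19.1 CPM. ENSRNA049494044 was also far out in wild type dark replicate 2, at 123 CPM against 75.4 CPM. In that library ENSRNA049494427 was at 331 CPM, with the next wild type library at 245 CPM. ENSRNA049493770 was at 21.1 CPM in uvr8-6 replicate 3 at 3000 µmol, with the next at 9.55 CPM. ENSRNA049494409 was at 1.34 CPM in wild type replicate 3 at 30000 µmol, where it had 1 count, and at 0 in the other wild type libraries. The sets of 9 hold 3 light conditions, whose differences are part of these gaps.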

How the results depend on the processing

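The 53 calls of single loci kept their direction under every alternative run (1097 values), and 210 of these values were no longer past the threshold. Counts of called loci that moved by over 1.5 times were these. On raw totals they were 0 for 30000 µmol in wild type and 3 in the mean of the genotypes, and with no filter 0 and 6. With DESeq2 they were 8 in wild type, 9 in xpf-3, 2 in uvr8-6 and 18 in the mean at 30000 µmol, 4, 6, 1 and 9 at 3000 µmol, 4 and 5 for xpf-3 against wild type in the dark and over the conditions, and, for the difference in response, 3 in xpf-3 and 2 in uvr8-6 at the higher dose and 4 and 2 at the lower. With only the groups compared they were 0 for xpf-3 at 30000 µmol (62 of the 69 loci tested), 1 for xpf-3 against wild type in the dark and 0 for uvr8-6 against wild type in the dark (58 tested). Replicate numbers were not treated as pairing the libraries, since not every same-numbered pair had a correlation of deviations over 0.1 (8 of 108 did, median 0.0271, against -0.00799 for other numbers). As a hint from the data that they may share something, 16 of 27 libraries were nearest to their own number, where 9 would be if the 3 numbers were alike. With a replicate block the counts were 0 in wild type and 6 in xpf-3 at 30000 µmol and 1 in xpf-3 at 3000 µmol, and no other count moved as far. Leaving out 1 library gave 0 to 1 calls in wild type and 0 to 3 in xpf-3 at 30000 µmol, 4 to 12 in the mean of the genotypes, 0 to 1 in xpf-3 and in the mean at 3000 µmol, 4 to 10 for uvr8-6 against wild type in the dark and 22 to 27 over the conditions. An arm left with 2 libraries shared the spread of all groups. The sum of the 69 loci in dark wild type was 12677 CPM, and 58001 CPM on library sizes of loci that are not rRNA. For these alternatives the cause was not tested, and their shares of called loci over all loci are not given. Depth limits loci of few counts most: ENSRNA049493770 summed to 46 counts in 9 uvr8-6 libraries.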
